A study of Mus musculus with 53 samples.

Results

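A set of 10 genes that mark or serve intestinal tuft cells were followed across the whole series: Pou2f3, Gfi1b, Trpm5, Il25, Alox5ap, Hpgds, Dclk1, Avil, Sh2d6 and Siglecf. They were picked by symbol, and all 10 were found by their Ensembl identifiers among the 55421 gene rows of the count table. The series held 53 bulk RNA-seq libraries of mouse gut tissue in 11 groups, each mouse group being compared with the wild-type (WT) group of its own tissue and time. All mice carried VilCreER, a tamoxifen-inducible Cre driven by the Villin promoter, so recombination was aimed at the intestinal epithelium while the sequenced RNA came from whole tissue. Mice were induced at 6 to 12 weeks of age.

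In the small intestine, 10 VilCreER+ APCfl/fl libraries (Apcfl/fl) were set against 6 VilCreER+ libraries (WT) taken 4 days after induction, and 5 tumours of VilCreER+ Apcfl/+ mice (Apcfl/+ tumour) against 3 libraries of VilCreER+ small intestine (WT SI). In the proximal colon, 4 tumours of VilCreER+ BrafV600E/+ Alk5fl/fl mice (BA tumour) were set against 3 VilCreER+ libraries (WT proximal colon). A further 5 colon groups were taken at day 30, namely WT (n = 4), VilCreER+ Alk5fl/fl (A, n = 4), A given sulindac (n = 4), BA (n = 5) and BA given antibiotics (n = 5). Alk5 is the type I TGFβ receptor, encoded by Tgfbr1. Sulindac, an inhibitor of prostaglandin synthesis, was in the drinking water at 0.4 g/L for 14 days and was then withdrawn, and the antibiotics were ampicillin, neomycin, vancomycin and metronidazole, started the day after tamoxifen. Tumours were taken at clinical endpoint, with no matched time in their controls. The WT SI and Apcfl/+ tumour groups were inbred C57BL6/J and all other groups were of mixed C57BL/6J background.

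Tuft cells are rare, chemosensory cells scattered through the gut epithelium. The transcription factor Pou2f3 is required for their formation, and Trpm5, a cation channel that opens downstream of taste-type receptors, carries their chemosensory signal. Activated tuft cells release the cytokine Il25 and lipid mediators, which act on innate lymphoid cells and so start type 2 immunity against parasites. Several of the genes are also used by other cells of the gut wall: Alox5ap, the partner of 5-lipoxygenase in leukotriene synthesis, and Hpgds, the haematopoietic prostaglandin D synthase, by myeloid and mast cells, Siglecf by eosinophils, and Dclk1 by neurons. In bulk tissue, fewer tuft cells and less RNA of these genes per tuft cell cannot be told apart.

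Library totals ran from 516985 to 32824795 counts with a median of 18356939, and 1 library (Apcfl/fl replicate 1) lay under 10000000. In that library 3 counts, taken here as the floor, were worth 5.80 CPM (the count scaled to the library total), above the level of most of the 10 genes, so its zeros say little. At the median total of each group the floor was 0.138 to 0.192 CPM. No pair of replicates agreed within sampling noise, so no library was counted as a duplicate. Marker lists for other cell types are given beside the results they moved with, and whole-gene counts do not separate recombined from intact alleles: Apc itself was at 36.9 to 155 CPM in Apcfl/fl and 63.2 to 113 CPM in WT day 4 small intestine.

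All 10 genes lie on autosomes (GRCm38). Pou2f3 is at chr9:43123939-43210369 on the minus strand, Gfi1b at chr2:28609450-28621982 on the minus strand, and Il25 at chr14:54932695-54935837 on the plus strand. Trpm5 is at chr7:143069153-143094642 on the minus strand and Siglecf at chr7:43351341-43359531 on the plus strand. Hpgds (chr6:65117293-65144908) and Sh2d6 (chr6:72513641-72521707) share chromosome 6 and the minus strand. Dclk1 (chr3:55242364-55539068), Alox5ap (chr5:149264767-149288153) and Avil (chr10:127000709-127020994) are on the plus strand. Exons of 4 of them overlap another gene: Trpm5 over 220 bases (Tssc4), Alox5ap over 189 (antisense Gm19719), Avil over 165 (Tsfm) and Dclk1 over 114. Read counts there depend on a strand setting that is not given in the sources used here. Of all possible 36-base reads from their transcripts, the share found in another gene was highest for Alox5ap (8.76%), then Avil (3.90%), Trpm5 (2.80%) and Pou2f3 (2.62%), and it was 0 for Il25, Gfi1b and Sh2d6.

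Promoters of 4 members are shown because these genes moved most clearly or most differently from each other below, namely Trpm5 and Sh2d6, which fell together, Avil, which departed from the rest in Apcfl/+ tumours, and Hpgds. Each is the stretch of 250 bases upstream of the RefSeq start (GRCm38.p6), 5′ to 3′ on the gene's own strand, with matches to the octamer bound by POU factors (ATGCAAAT) or its core of 7 letters (ATGCAAA), on either strand, in capitals.
Trpm5 promoter, chr7:143094643-143094892, minus strand: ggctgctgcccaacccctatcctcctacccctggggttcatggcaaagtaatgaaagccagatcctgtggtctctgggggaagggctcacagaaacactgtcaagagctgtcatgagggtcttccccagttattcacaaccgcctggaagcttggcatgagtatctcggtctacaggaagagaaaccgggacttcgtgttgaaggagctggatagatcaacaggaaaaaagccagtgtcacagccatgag
Sh2d6 promoter, chr6:72520037-72520286, minus strand: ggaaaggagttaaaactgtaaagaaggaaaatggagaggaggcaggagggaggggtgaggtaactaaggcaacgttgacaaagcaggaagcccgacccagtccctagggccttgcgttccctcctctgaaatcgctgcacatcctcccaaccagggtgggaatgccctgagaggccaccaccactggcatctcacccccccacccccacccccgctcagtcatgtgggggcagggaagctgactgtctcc
Avil promoter, chr10:127000459-127000708, plus strand: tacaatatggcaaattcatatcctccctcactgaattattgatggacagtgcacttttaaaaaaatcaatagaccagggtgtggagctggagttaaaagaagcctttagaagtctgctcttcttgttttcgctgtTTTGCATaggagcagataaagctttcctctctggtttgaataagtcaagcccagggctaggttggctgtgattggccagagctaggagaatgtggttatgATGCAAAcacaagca
Hpgds promoter, chr6:65144731-65144980, minus strand: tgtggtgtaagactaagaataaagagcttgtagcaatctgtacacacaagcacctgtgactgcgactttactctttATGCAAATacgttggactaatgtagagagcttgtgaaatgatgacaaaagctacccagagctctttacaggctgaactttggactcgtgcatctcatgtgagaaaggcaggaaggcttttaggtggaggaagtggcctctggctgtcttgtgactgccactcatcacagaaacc

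RefSeq windows were at hand for 7 of the 10 members (8 windows, as Dclk1 has a pair), and not for Pou2f3, Il25 or Alox5ap. The full octamer stood in 1 of the 8 windows (Hpgds) against 1.6% of all 32851 mouse windows. Its core, which the octamer contains, stood in 2 of 8 (Hpgds, and Avil in 2 places) against 4.12% of all. The STAT6 motif, a spaced palindrome that reads the same on both strands, was found in 2 of 8 (Dclk1 and Gfi1b) against 5.85%. No motif searched for was in the Trpm5 or Sh2d6 window. Windows of the members are too few for these shares to set them apart from other promoters.

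In normal gut the 10 genes differed widely in level. Scaled by exon length, the median in WT day 4 small intestine was 8.11 CPM per kb for Sh2d6, an adaptor with an SH2 domain, 4.68 for Alox5ap, 3.68 for Avil, an actin-binding protein of the villin family, and 3.37 for Trpm5. Siglecf followed at 2.78, Hpgds at 1.54 and Dclk1, a microtubule-associated kinase, at 1.11, and the transcription factors came last with Pou2f3 at 0.711 and Gfi1b at 0.306. Ranges over the 6 libraries of Alox5ap (3.22 to 5.88), Avil (2.37 to 4.32) and Trpm5 (2.17 to 6.44) overlapped, so that their order is not resolved. Il25, the secreted signal, was hardly detected: it had at most 7 counts in any library of the series, so its level could hardly be compared at this depth. In WT colon at day 30 Sh2d6 again had the highest level per length (4.49 CPM per kb), ahead of Alox5ap (2.65), Avil (1.84), Dclk1 (1.44), Hpgds (1.18), Trpm5 (1.11) and Siglecf (1.02), with Pou2f3 at 0.351.

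Across groups, normalised to library size but not length, WT day 4 small intestine had the highest median of 5 genes: Trpm5 (21.6 CPM), Sh2d6 (13.7), Siglecf (7.75), Pou2f3 (2.20) and Gfi1b (0.560). BA tumours had the lowest median of 3 of them, at 3.55 CPM for Trpm5, 1.05 for Sh2d6 and 0.356 for Pou2f3. The same tumours had the highest median of Hpgds (17.7 CPM) and of Alox5ap (7.74 CPM), the pair of lipid mediator genes. WT SI came next for Hpgds with a median of 16.6 CPM, and its libraries (15 to 16.9 CPM) lay just below those of BA tumours (17.4 to 20.6 CPM). Dclk1 had medians between 16.2 CPM (BA day 30) and 26.4 CPM (Apcfl/+ tumours) in 10 of the groups, with Apcfl/fl far below at 5.22 CPM. Avil had a median of 278 CPM in Apcfl/+ tumours, and of 4.63 to 12.5 CPM in the other groups. Levels set across separate experiments also carry tissue, time and background.

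**Figure D1:**
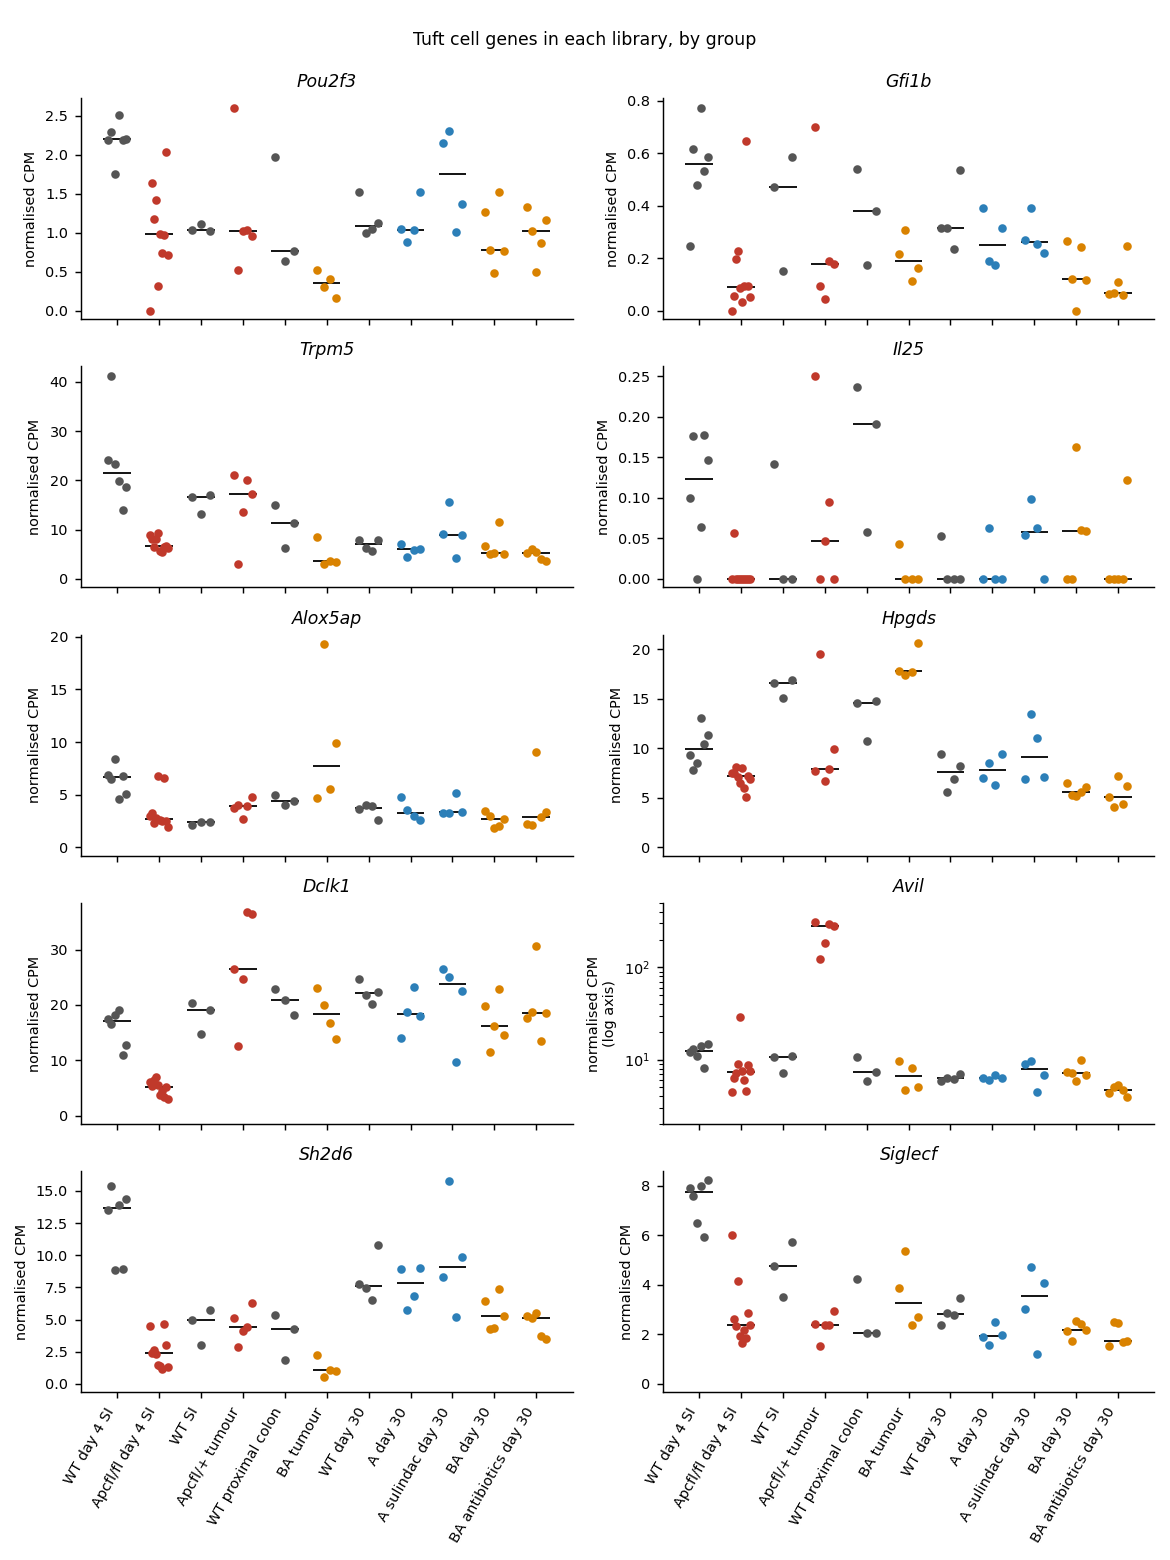
Normalised CPM of the tuft cell genes (y axes, linear except Avil, which is on a log axis) in each of the 53 libraries (points) by group (x axis), with a line at each group's median. Apcfl/+ tumours sit between 123 and 310 CPM for Avil, above every other library, and BA tumours have the lowest median of Trpm5, Pou2f3 and Sh2d6 with the highest of Hpgds and Alox5ap.

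At 4 days after loss of Apc, the tumour suppressor that restrains Wnt signalling, tuft cell genes fell together in the small intestine. Of the 8 members that passed the low-count filter (Il25 and Gfi1b did not), 7 were lower and none was higher, where 26.7% of the 17536 genes tested were called lower (edgeR quasi-likelihood test, Benjamini-Hochberg adjusted p under 0.05, which is the rule for a call throughout). Their median log2 fold change was -1.32, beside a median near 0 for all genes tested. The Wnt targets Axin2 and Lgr5 rose by 2.14 ± 0.17 (SE) and 2.25 ± 0.28 (SE) on the log2 scale in the same libraries.

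Sh2d6 fell furthest. Its level ran from 1.14 to 4.64 CPM with a median of 2.38 in the 10 Apcfl/fl libraries, and from 8.83 to 15.4 CPM with a median of 13.7 in the 6 WT libraries. Every Apcfl/fl library lay below every WT library, at a log2 fold change of -2.47 ± 0.31 (adjusted p = 7.29e-06). Trpm5, the chemosensory channel, was at 5.41 to 9.26 CPM (median 6.68) in Apcfl/fl and at 13.9 to 41.2 CPM (median 21.6) in WT, again without overlap (-1.75 ± 0.19, adjusted p = 1.91e-06). Dclk1, the most used tuft cell marker, was at 2.93 to 6.97 CPM (median 5.22) against 11 to 19.1 CPM (median 17.0), the third gene whose groups did not overlap (-1.72 ± 0.19, adjusted p = 2.03e-06).

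Siglecf, a sialic acid-binding lectin, fell by 1.58 ± 0.22 on the log2 scale (adjusted p = 1.65e-05), from a WT median of 7.75 CPM to 2.36, with 1 Apcfl/fl library at 6.00 CPM inside the WT range of 5.91 to 8.23. That library was replicate 1, the one of 516985 counts, where the value rests on 4 counts. Eosinophils also express it, and the eosinophil markers Prg2 and Ccr3 fell too, by 1.74 ± 0.34 and 1.25 ± 0.41, so the part of either cell type in its fall was not tested. Pou2f3, on which tuft cell formation depends, had a median of 0.979 CPM (0 to 2.04) against 2.20 CPM (1.76 to 2.51) in WT, a change of -1.05 ± 0.30 (adjusted p = 0.0076). Its lowest Apcfl/fl value of 0 came from the library of 516985 counts. Gfi1b, the other transcription factor, held 24 counts over 10 Apcfl/fl libraries and 57 over 6 WT libraries. It was removed by the low-count filter, as was Il25 (1 count in all against 12), and in the fit without that filter both were called lower, Gfi1b at -2.01 ± 0.47 (adjusted p = 0.00247) and Il25 with an adjusted p of 0.000985.

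The lipid mediator genes fell less. Alox5ap changed by -0.90 ± 0.28 (adjusted p = 0.0127), from 4.57 to 8.35 CPM in WT to 1.97 to 6.73 CPM in Apcfl/fl, and Hpgds by -0.58 ± 0.15 (adjusted p = 0.00372), from 7.77 to 13.1 CPM to 5.07 to 8.14 CPM. In both genes the ranges overlapped. Avil was the exception at -0.43 ± 0.31 (adjusted p = 0.262). Its 10 Apcfl/fl values ran from 4.50 to 29.2 CPM with a median of 7.34, and replicate 5 alone was above 9.01. Leaving that library out, Avil gave a log2 fold change of -0.82 and passed (adjusted p = 0.000501), and DESeq2 called it with all libraries.

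Other genes of the tuft cell programme moved the same way. All 14 genes of a signalling list fell (median log2 fold change -1.22), from Ptpn6, a phosphatase, at -0.68 ± 0.16 to Ly6g6f at -2.86 ± 0.55, with Sh2d7 (-2.59 ± 0.38), the G protein regulator Rgs13 (-2.59 ± 0.35) and the kinase Bmx (-1.94 ± 0.24) in between. Several of them, Vav1 and Ptpn6 among them, are also genes of blood cells, and 4 of 9 myeloid markers tested were lower in the same libraries, with Itgam at -0.98 ± 0.23. Of 4 chemosensing genes tested 3 fell, namely Ffar3, a receptor for short-chain fatty acids (-2.20 ± 0.28), the phospholipase Plcb2 (-1.50 ± 0.17) and the taste receptor subunit Tas1r3 (-0.60 ± 0.18), while Itpr3 was at 0.10 ± 0.18. Spib, a transcription factor that B cells use as well, fell by 2.15 ± 0.65.

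Enzymes of mediator synthesis were divided. Alox5 (-1.46 ± 0.38) and Ltc4s (-1.19 ± 0.24), which together make leukotriene C4, and the cyclooxygenase Ptgs1 (-0.68 ± 0.12) fell, and the phospholipase Pla2g4a rose by 0.66 ± 0.14. Of 9 genes tested in the type 2 circuit, 4 fell, with Gata3 lowest at -1.65 ± 0.20 and Il17rb, a subunit of the Il25 receptor, at -0.99 ± 0.22, and 1 rose (Il1rl1, the Il33 receptor, 1.38 ± 0.19). Retnlb, the highest in that list at 1.52 ± 0.71, did not pass. Pan-epithelial markers showed no shift of this size, with a median of -0.04 over 14 genes, 4 higher and 1 lower. All 6 markers of mature small intestinal epithelium fell (median -1.93), as did 6 of 8 neural markers (median -0.91). Neurons also express Dclk1, and what part these cell types had in the falls was not tested. Without Apcfl/fl replicates 1 and 8, a choice made after seeing the data, 7 members were called.

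**Figure D2:**
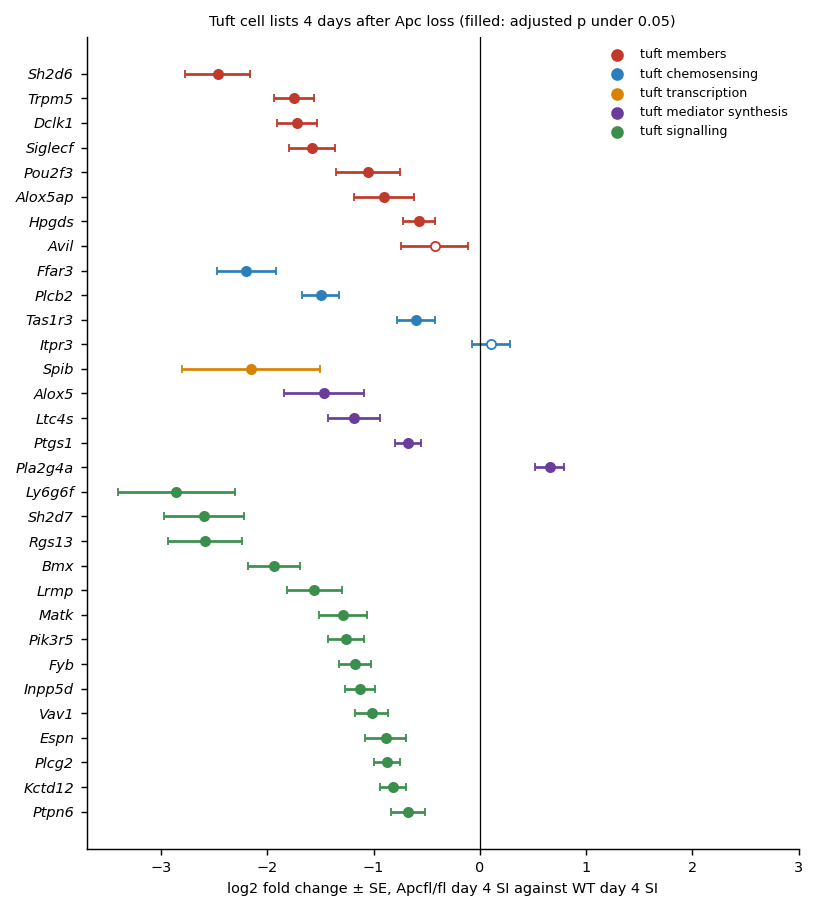
Log2 fold change ± SE (x axis) between Apcfl/fl and WT small intestine at day 4 for each gene of the tuft cell lists that could be tested (y axis), coloured by list, filled where adjusted p was under 0.05. Nearly all points lie left of 0, from Ly6g6f at -2.86 to Itpr3 at 0.10, and Pla2g4a at 0.66 is the gene that rose.

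Tumours of Apcfl/+ mice, which arise in the small intestine after loss of the second Apc allele, gave another picture. The colon marker Car1 was above 10 CPM in 1 of these tumours (171 CPM), against at most 0.377 CPM in WT SI, and the part of gut region was not tested. Of 9 members tested (Il25 did not pass the filter), 3 were called, 2 of them higher and 1 lower, where 61.5% of 20567 genes were called in either direction. Avil was at 310, 123, 184, 298 and 278 CPM in tumours 1 to 5 and at 10.6, 7.09 and 11.1 CPM in the 3 WT SI libraries. Its mean was 24.9 times as high in the tumours (log2 fold change 4.53 ± 0.37, adjusted p = 3.95e-05), and the lowest tumour was over every WT SI library. Tsfm, whose exons overlap those of Avil on the opposite strand, rose by 0.44 ± 0.14 (adjusted p = 0.0212).

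The defining tuft cell genes did not share the rise of Avil. Trpm5 was at 21.2, 3.14, 13.5, 20.1 and 17.3 CPM in the tumours and at 16.7, 13.2 and 17.1 CPM in WT SI (-0.16 ± 0.48, adjusted p = 0.779). Pou2f3 was at 2.60, 0.523, 1.02, 1.04 and 0.957 CPM against 1.04, 1.11 and 1.02 CPM (0.10 ± 0.46, adjusted p = 0.859). The groups overlapped in both, with tumour 2 lowest for Trpm5 and Pou2f3 alike. Sh2d6 (-0.10 ± 0.29, adjusted p = 0.766) and Gfi1b (-0.87 ± 0.74, adjusted p = 0.329) did not pass either. Their intervals are wide, so changes of moderate size could not be seen with these numbers.

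Siglecf was lower in every tumour, at 1.52 to 2.94 CPM, than in WT SI, at 3.49 to 5.71 CPM (-1.10 ± 0.24, adjusted p = 0.00409). The eosinophil genes Prg2, Ccr3 and Il5ra did not pass here, at 0.64 ± 0.33, -0.60 ± 0.48 and 0.00 ± 0.59. Alox5ap was higher in every tumour, at 2.64 to 4.79 CPM against 2.07 to 2.44 CPM (0.62 ± 0.22, adjusted p = 0.0329), but this call was lost when any of 6 of the 8 libraries was left out, namely WT SI 1, 2 or 3 or tumour 1, 4 or 5 (0.51 to 0.67, adjusted p 0.0577 to 0.0991). When libraries were scaled to pan-epithelial markers, of which 11 of 14 were higher in the tumours, the sign of Alox5ap turned (-0.09). That scaling moved the median of all genes to -0.69, and Siglecf and Avil were called in the same direction under it.

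Tumour 2 stood apart for several members. It had the lowest Trpm5 (3.14 CPM), Dclk1 (12.5 CPM) and Avil (123 CPM) of the tumours and the highest Hpgds, at 19.5 CPM where the others were between 6.68 and 9.89. Its myeloid markers summed to 635 CPM against 215 to 331 in the other tumours, and its pan-epithelial markers to 7281 CPM against 9440 to 12158. The part of tissue makeup in these values was not tested. Without it, Dclk1 was called higher (0.67, adjusted p = 0.00758, from 0.49 ± 0.31 and 0.197) and Hpgds lower (-1.11, adjusted p = 0.000191, from -0.74 ± 0.33 and 0.081), so that 5 members were called.

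Other tuft cell lists were mostly lower or did not pass in these tumours. Of 14 signalling genes 6 fell and none rose (median -0.54), from Fyb at -1.86 ± 0.16 to Vav1, not called, at 0.12 ± 0.20, with Sh2d7 at -1.11 ± 0.40. Among mediator enzymes Chat, which makes acetylcholine, fell by 1.51 ± 0.31, Ltc4s by 1.01 ± 0.29 and Alox5 by 0.98 ± 0.20, and Pla2g4a rose by 0.37 ± 0.14. Of 5 chemosensing genes Plcb2 (-1.87 ± 0.15) and Tas1r3 (-0.96 ± 0.16) fell and Itpr3 rose (0.64 ± 0.13). In the type 2 circuit 5 of 10 tested rose, among them Retnlb, an antimicrobial goblet cell product (6.22 ± 0.74), Il1rl1 (3.72 ± 0.30) and Il33 (1.98 ± 0.54). Of 9 mast cell markers tested 8 rose with them (median 3.85), their summed level being 73.0 to 193 CPM in tumours and 15.7 to 21.4 CPM in WT SI, while Hpgds, which mast cells use, was at -0.74 ± 0.33.

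The effect in tumours was then tested against the effect at day 4, each relative to its own WT. For 5 of 9 members the tumour effect was higher, where 12.4% of 22202 genes were. The difference of log2 fold changes was 4.90 ± 0.57 for Avil (adjusted p = 6.16e-06), 2.34 ± 0.49 for Sh2d6 (0.00158), 2.18 ± 0.36 for Dclk1 (0.000189), 1.57 ± 0.46 for Trpm5 (0.0159) and 1.50 ± 0.44 for Alox5ap (0.0166). Trpm5 missed the threshold without WT SI replicate 2 (1.47, adjusted p = 0.0554). Pou2f3 (1.11 ± 0.56, adjusted p = 0.151), Gfi1b (1.12 ± 0.85), Siglecf (0.44 ± 0.35) and Hpgds (-0.21 ± 0.32) did not pass. Time, tumour formation, the number of floxed alleles and mouse background all differ between these experiments and cannot be told apart.

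**Figure D3:**
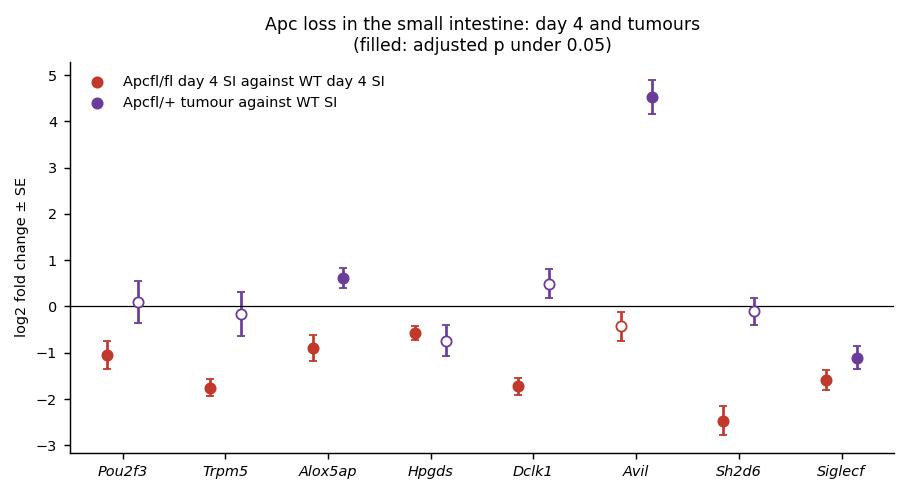
Log2 fold change ± SE (y axis) of each tuft cell gene tested (x axis) against its own WT in Apcfl/fl small intestine at day 4 and in Apcfl/+ tumours, filled where adjusted p was under 0.05. Trpm5, Dclk1 and Sh2d6 are at -1.72 or lower at day 4 and between -0.16 and 0.49 in tumours, and Avil reaches 4.53 in tumours.

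In BA tumours of the colon, Pou2f3, Trpm5 and Sh2d6 had low medians while Alox5ap and Hpgds had high ones, but no member passed the test. None of 8 tested was called by edgeR, where 13.2% of 19188 genes were called in either direction. At an unadjusted p under 0.05 there were 5 members, beside 28.2% of all genes tested, and DESeq2 called 2 (Trpm5 and Sh2d6). Trpm5 was at 8.60, 3.09, 3.56 and 3.53 CPM in the 4 tumours, with 14.9, 6.27 and 11.4 CPM in the WT libraries (-1.18 ± 0.42, adjusted p = 0.102). Only tumour 1 was inside the WT range. Sh2d6 was at 2.28, 0.514, 1.09 and 1.02 CPM against 5.35, 1.84 and 4.24 CPM, with tumour 1 again highest (-1.59 ± 0.52, adjusted p = 0.0767). Without tumour 1 both were called, Trpm5 at -1.63 (adjusted p = 0.0213) and Sh2d6 at -2.05 (adjusted p = 0.0309).

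Pou2f3 was lower in every BA tumour (0.516, 0.309, 0.402 and 0.162 CPM) than in every WT proximal colon library (1.96, 0.633 and 0.762 CPM), at -1.66 ± 0.57 (adjusted p = 0.088). The tumour values rest on 12, 3, 7 and 4 counts, beside a floor of 3 counts. Hpgds was higher in every tumour, at 17.8, 17.4, 17.7 and 20.6 CPM against 14.6, 10.8 and 14.8 CPM (0.48 ± 0.20, adjusted p = 0.146). Alox5ap was at 4.64, 19.3, 5.58 and 9.91 CPM against 5.01, 4.03 and 4.38 CPM, with tumour 1 inside the WT range (1.17 ± 0.50, adjusted p = 0.164). Dclk1 (-0.14 ± 0.22), Avil (-0.19 ± 0.34) and Siglecf (0.38 ± 0.43) had overlapping groups.

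Markers of blood cells moved in the same tumours. Of 10 myeloid markers 6 rose (median 2.40), among them S100a9 (4.32 ± 0.83) and Cd68 (2.48 ± 0.62), and their sum was 587, 2090, 1128 and 1569 CPM in tumours 1 to 4 against 334 to 353 CPM in WT proximal colon. Of these, the neutrophil gene Ly6g was at 106 to 393 CPM in the tumours and at most 0.667 in WT, but it was also at 319 to 512 CPM in BA day 30 tissue, where the other 9 summed to 164 to 238 CPM. Without Ly6g, left out after seeing the data, the sums were 481, 1697, 835 and 1275 CPM against 333 to 352 CPM. Tumour 2, highest in either sum, was also highest in Alox5ap (19.3 CPM), and tumour 1, lowest in it, was highest in Trpm5, Pou2f3 and Sh2d6. Myeloid cells express Alox5ap and Hpgds, and their part in these levels was not tested. Of the eosinophil markers only Il5ra was called (7.82 ± 0.49), with Prg2 at 0.61 ± 0.45 and Ccr3 at 0.44 ± 0.62. Ddx3y, a Y-linked gene, was above 10 CPM in 3 of 4 tumours and in 0 of 3 WT libraries, so sex and tumour cannot be fully told apart. Of the small intestinal markers, Lct reached 160 CPM and Gata4 14.2 CPM, each above 10 CPM in 1 tumour. WT proximal colon had at most 2.95 and 0.403 CPM. Apoa4 was above 10 CPM in 2 tumours, against at most 5.86 CPM in WT. Medians of Lct, Gata4, Slc5a1 and Anpep were below those of WT. Those of Apoa4 (5.49 against 1.78 CPM) and Alpi (43.3 against 38.7 CPM) were above. Anpep reached 230 CPM, Slc5a1 177 CPM and Alpi 130 CPM in the tumours, against at most 85.2, 112 and 48.6 CPM in WT. What part gut region had in the member levels was not tested.

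Within the tuft cell lists, 13 signalling genes were tested and 2 were lower, Rgs13 (-2.36 ± 0.61) and Espn (-1.00 ± 0.26), while 4 were higher, Inpp5d (1.58 ± 0.31), Pik3r5 (1.33 ± 0.34), Kctd12 (0.89 ± 0.21) and Plcg2 (0.75 ± 0.19). Inpp5d, Pik3r5 and Plcg2 are also blood cell genes. Among 5 chemosensing genes the lowest values were those of Gnat3, the taste G protein gustducin (-1.98 ± 0.79), and Ffar3 (-1.58 ± 0.53), and neither passed. Among 5 mediator enzymes, Ltc4s (2.29 against 3.59 CPM) and Alox5 (5.49 against 6.19 CPM) had lower medians than in WT proximal colon. Pla2g4a (62.0 against 73.0 CPM) and Chat (0.269 against 0.524 CPM) did too, and Ptgs1 had a higher one (44.4 against 39.9 CPM). Ranges of the groups overlapped in each. In the type 2 circuit Il4ra (2.04 ± 0.28) and Il33 (1.95 ± 0.49) rose.

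Compared with the effect in Apcfl/+ tumours, the effect in BA tumours differed for 3 of 9 members, being higher for 2 and lower for 1, where 39.7% of 21668 genes differed in either direction. Avil was lower by a wide margin (-4.68 ± 0.48, adjusted p = 3.29e-05), as its levels of 9.59, 4.63, 8.11 and 5.08 CPM in BA tumours were within the WT range or close to it. Siglecf (1.51 ± 0.49, adjusted p = 0.0249) and Hpgds (1.25 ± 0.42, adjusted p = 0.0284) were higher. Siglecf lost its call without any of 5 libraries (BA tumour 1 or 2, WT proximal colon 2 or 3, or WT SI 3, 1.14 to 1.38) and Hpgds without any of 9 of the 15 (1.02 to 1.29, adjusted p up to 0.0808). Without Apcfl/+ tumour 2, 7 members were called, and without WT SI replicate 3, 1 was. Organ, genotype and background differ between these tumour models and cannot be told apart.

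Against the effect of the same BA genotype at day 30, the tumour effect was higher for Hpgds alone among 8 members (0.85 ± 0.23, adjusted p = 0.0189), where 9.87% of 20637 genes were higher. It missed the threshold without WT proximal colon replicate 1 (0.82, adjusted p = 0.0516). Without BA tumour 1, 4 members were called, and without BA tumour 3 or BA day 30 replicate 1, 2 were.

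At day 30 the epithelium of BA mice had been recombined 30 days before, and tissue rather than tumours was sampled. Of 8 members 1 was lower than in WT, where 29.3% of 17471 genes were lower. All comparisons with WT at day 30 use the same 4 WT libraries, so their values are not independent of each other. Sh2d6 was at 6.44, 4.28, 4.31, 7.42 and 5.27 CPM in BA and at 7.74, 7.43, 6.54 and 10.8 CPM in WT (-0.52 ± 0.20, adjusted p = 0.0447). The groups overlapped through BA replicate 4. This call was lost without any of 6 libraries, BA replicates 2, 3 or 5 or WT replicates 1, 2 or 4 (-0.55 to -0.36, adjusted p up to 0.159).

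The chemosensory and transcription genes did not pass. Trpm5 was at 6.77, 5.12, 5.37, 11.5 and 5.04 CPM in BA and 7.95, 6.28, 5.73 and 7.97 CPM in WT (-0.01 ± 0.25, adjusted p = 0.971). Dclk1 (-0.36 ± 0.17, adjusted p = 0.0877), Hpgds (-0.37 ± 0.16, adjusted p = 0.0645), Alox5ap (-0.41 ± 0.21), Siglecf (-0.36 ± 0.17) and Pou2f3 (-0.23 ± 0.30) had negative values, and Avil a positive one (0.26 ± 0.15, adjusted p = 0.158). Without BA replicate 4, which was highest in Trpm5, Pou2f3, Dclk1, Avil and Sh2d6, Dclk1 was called lower (-0.49, adjusted p = 0.0167), and without WT replicate 2 so was Hpgds (-0.48, adjusted p = 0.0155).

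These values depend on what they are taken relative to. In BA day 30 tissue 12 of 14 pan-epithelial markers were higher (median 0.67) and all 8 neural and 6 of 8 smooth muscle markers were lower (medians -1.67 and -0.96), and Dclk1 is also a neuronal gene. Scaled to the pan-epithelial markers, which shifts the median of all genes to -0.70, all 8 members were called lower, from -0.40 for Avil, whose sign turned, to -1.18 for Sh2d6. The share of all genes called lower on that scale was not at hand, so this count is not read as a result about the members. Trpm5 was then at -0.67 (adjusted p = 0.0342), close to the shift of all genes, and Sh2d6, Alox5ap (-1.08), Hpgds (-1.05), Siglecf (-1.03) and Dclk1 (-1.03) were below it.

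Other tuft cell genes showed changes in both directions. Of 5 mediator enzymes 3 fell, Chat (-1.19 ± 0.38), Ltc4s (-0.76 ± 0.21) and Ptgs1 (-0.53 ± 0.15). Among 5 chemosensing genes Ffar3 fell (-0.75 ± 0.29) and Itpr3 rose (0.84 ± 0.09), and among 13 signalling genes 2 rose, Ptpn6 and Espn, both by 0.29. In the type 2 circuit Retnlb (-2.89 ± 0.38) and Il17rb (-0.68 ± 0.25) fell and Il4ra (0.90 ± 0.10) and Stat6 (0.54 ± 0.10) rose. Il5ra, the eosinophil gene, was at 30.7 to 68.7 CPM in BA and at most 1.71 CPM in every library of the WT, A and Apc groups, while Prg2 was not called (-0.22 ± 0.41).

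BA mice given antibiotics had 2 of 8 members lower than WT, where 17.8% of 17569 genes were lower. Sh2d6, at 5.25, 5.15, 5.48, 3.76 and 3.49 CPM, was under every WT library (-0.78 ± 0.20, adjusted p = 0.0105). So was Avil, at 4.30, 5.02, 5.37, 4.63 and 3.98 CPM against 5.79 to 6.95 CPM in WT (-0.41 ± 0.14, adjusted p = 0.0382). Gfi1b, with 9 counts over 5 libraries against 27 over 4, was removed by the filter and was called lower without it (-1.61 ± 0.52, adjusted p = 0.0436), where Avil was not called (adjusted p = 0.0778). Avil lost its call without any of antibiotics replicates 1, 4 or 5 or WT replicates 2, 3 or 4 (-0.44 to -0.37, adjusted p up to 0.101), which left 1 member called each time. Trpm5 (-0.48 ± 0.19, adjusted p = 0.0655) and Siglecf (-0.51 ± 0.21, adjusted p = 0.0782) were close to the threshold.

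Antibiotics replicate 3 was unlike the other 4. It had 9.08 CPM of Alox5ap where they had 2.1 to 3.37, 30.6 CPM of Dclk1 where they had 13.5 to 18.7, and the highest Hpgds, at 7.20 CPM. Its fibroblast markers summed to 7549 CPM against 1058 to 1477 in the others, and its myeloid markers to 757 against 457 to 494, or to 468 against 111 to 147 without Ly6g, which was at 289 to 366 CPM in all 5, and their part in these levels was not tested. Without this library 6 members were called lower, with Trpm5 at -0.54 (adjusted p = 0.0431), Dclk1 at -0.36 (0.0333), Hpgds at -0.59 (0.0329) and Siglecf at -0.62 (0.0339) added, and without antibiotics replicate 2, 4 were called. Scaled to pan-epithelial markers, of which 11 of 14 were higher than in WT, 7 were called, beside a median of -0.57 for all genes. Shares of all genes called in these refits were not at hand, so their counts are not read as results about the members.

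Set against untreated BA mice directly, those on antibiotics differed in Avil alone, which was lower in 5 of 5 libraries (4.30, 5.02, 5.37, 4.63 and 3.98 CPM against 7.37, 7.24, 5.94, 9.79 and 6.81 CPM). The log2 fold change was -0.68 ± 0.15 (adjusted p = 0.0146), where 8.50% of 16680 genes were lower, and it was -0.60 and not called (adjusted p = 0.0963) on the pan-epithelial scale. BA mice set against A mice at day 30 differed in Hpgds, at 6.51, 5.25, 5.21, 5.53 and 6.04 CPM against 7.04, 8.53, 6.28 and 9.38 CPM (-0.41 ± 0.15, adjusted p = 0.0461), where 23.6% of 17128 genes were lower. The groups overlapped, and the call was lost without any of 6 libraries, BA replicates 2 to 5 or A replicates 2 or 4 (-0.43 to -0.28, adjusted p up to 0.183). On the pan-epithelial scale 5 members were called lower in BA, Hpgds among them, where the median of all genes was -0.75. The share of all genes called on that scale was not at hand.

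**Figure D4:**
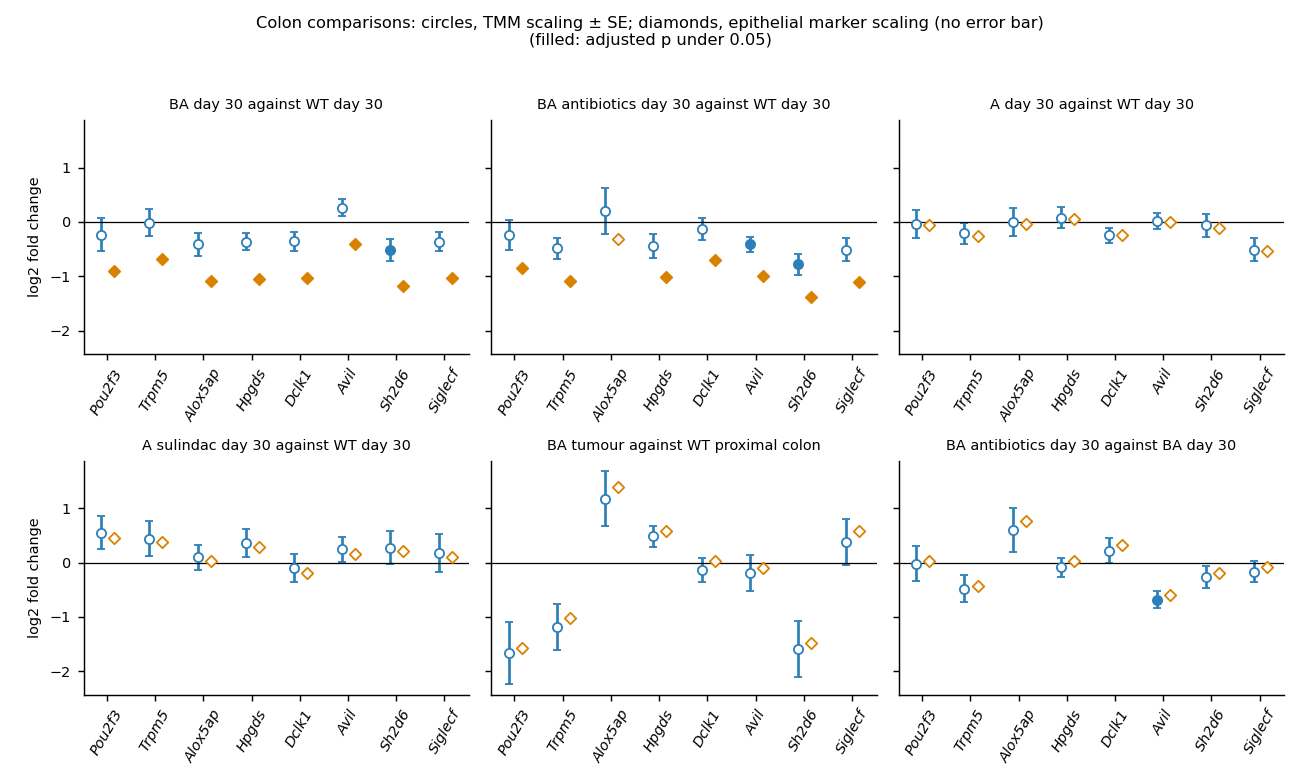
Log2 fold changes (y axes) of the tuft cell genes (x axis) in the colon comparisons, 1 per panel, as circles ± SE with the usual scaling and as diamonds with scaling to pan-epithelial markers, filled where adjusted p was under 0.05. In BA day 30 against WT the circles lie between -0.52 and 0.26 and the diamonds between -1.18 and -0.40, while in A mice circles and diamonds nearly coincide.

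With Alk5 alone lost, no tuft cell gene passed the test. None of 8 members was called in A day 30 tissue by edgeR or DESeq2, where 0.141% of 17713 genes were called, and 1 had an unadjusted p under 0.05 (Siglecf, -0.51 ± 0.21, adjusted p = 0.505). Trpm5 was at 7.17, 4.45, 5.88 and 6.18 CPM in A and at 7.95, 6.28, 5.73 and 7.97 CPM in WT (-0.21 ± 0.20). Dclk1 was at -0.25 ± 0.15, and Pou2f3, Sh2d6, Avil, Hpgds and Alox5ap lay between -0.06 and 0.08.

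Sulindac blocks the cyclooxygenases that stand upstream of Hpgds. In A mice that had received it, none of 8 members was called against WT by edgeR or DESeq2, none had an unadjusted p under 0.05, and 0.0507% of 17742 genes were called. Values were positive for 7 of the 8, with Pou2f3 at 0.55 ± 0.30, Trpm5 at 0.44 ± 0.32 and Hpgds at 0.36 ± 0.25. Against A mice without sulindac 0 of 8 members were called by either tool, again with 0 at an unadjusted p under 0.05. In that comparison edgeR called 0% of 17568 genes, with 460 at an unadjusted p under 0.05, and DESeq2 called 8 genes. Trpm5 was at 9.13, 15.5, 4.23 and 8.88 CPM with sulindac and 7.17, 4.45, 5.88 and 6.18 CPM without (0.66 ± 0.35), and Siglecf at 3.01, 4.72, 1.20 and 4.09 CPM against 1.89, 1.57, 2.48 and 1.99 CPM (0.71 ± 0.38). Sulindac replicate 3 was the lowest of its group in Trpm5, Dclk1, Avil, Sh2d6, Pou2f3 and Siglecf, and the other 3 were above all A libraries in Trpm5 and Siglecf. Mice were sampled after sulindac had been withdrawn, so these values describe tissue no longer on the drug.

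How closely the members moved together was described from the deviation of each library from its group mean, on the log2 CPM scale, over the 52 libraries with at least 1000000 counts. Trpm5 was taken as reference. Its Pearson correlation was 0.672 with Dclk1, 0.660 with Sh2d6, 0.657 with Avil, 0.542 with Siglecf and 0.493 with Pou2f3, while the median over 16652 genes was 0.0273. Alox5ap (-0.109) and Hpgds (-0.338), the mediator genes with other cellular sources, did not follow it. These points share tissue pieces of varying makeup and are given as a description.

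In colon (29 libraries) Sh2d6 followed Trpm5 most closely of the members, at 0.915, then Avil at 0.832, and in small intestine (23 libraries) they stood at 0.420 and 0.582. Hpgds was at -0.727 in small intestine and 0.136 in colon. Without the 2 libraries farthest from their group mean in Trpm5, Apcfl/+ tumour 2 (-1.97) and A sulindac replicate 3 (-1.00), Sh2d6 was at 0.659, Avil at 0.588 and Dclk1 at 0.522, and Hpgds was at -0.0178, so the negative value of Hpgds rested on them. The 10 genes of the whole table most like Trpm5 were Cgref1 (0.784), Gm1123 (0.773), 2210009P08Rik (0.765), Slc13a1 (0.751), Slc3a1 (0.736), 4930458D05Rik (0.723), Vstm5 (0.717), Gm11437 (0.708), Abhd3 (0.707) and Chn2 (0.695), none of which is in a tuft cell list here. Dclk1 came at rank 22, Sh2d6 at 25 and Avil at 27. These ranks rest in part on the same 2 libraries, as without them Sh2d6 stood at rank 5, Avil at 16 and Dclk1 at 53, and Abhd3, for example, fell to 0.452. Slc13a1 and Slc3a1 are transporters of absorptive epithelium. Over all 52 libraries the tuft signalling genes Rgs13 (0.690, rank 13) and Sh2d7 (0.676, rank 18) ranked above every member, and Bmx (0.642) came at rank 37. Others of that list did not follow Trpm5, with Inpp5d at -0.241 and Lrmp at -0.234.

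**Figure D5:**
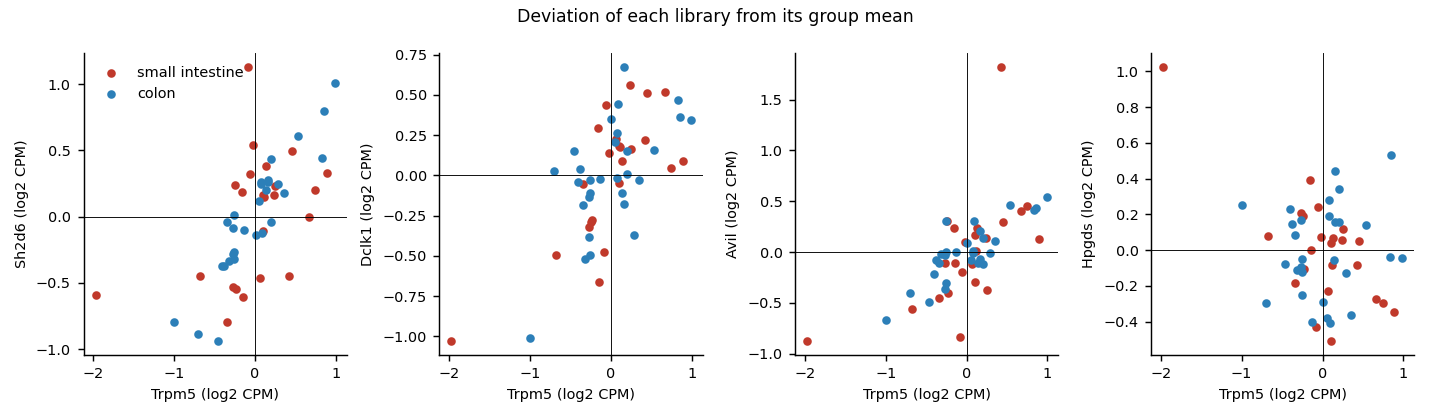
Deviation of each of the 52 libraries from its group mean in log2 CPM, for Trpm5 (x axes) against other tuft cell genes (y axes), small intestine and colon in separate colours. Sh2d6 and Avil rise with Trpm5, most tightly in colon at 0.915 and 0.832, and Hpgds does not.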

How the data were processed

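Raw read counts per gene were the only unit used. Per the methods and processing notes of the authors, RNA of whole tissue was made into TruSeq RNA v2 libraries, read as pairs of 36 bases on a NextSeq 500, trimmed with Trim Galore 0.6.4, checked with FastQC 0.11.8, aligned to GRCm38 with HISAT2 2.1.0 and counted per Ensembl gene with featureCounts 1.6.4. The strand and multiple-mapping settings are not given in the sources used here, which touches genes with overlapping exons. The deposited counts (53 libraries) were not normalised.

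Groups came from the labels of each sample. The study's reporting summary describes replicates as separate animals in general; the labels do not tie single libraries to animals. Each comparison was fitted alone with edgeR 4.0.16 in R 4.3.3 (filterByExpr, TMM scaling, quasi-likelihood test, two-sided), with Benjamini-Hochberg adjustment over all genes tested and a threshold of 0.05. Differences between effects were tested as interactions over comparisons that shared no controls. Normalised CPM used TMM scaling over all 53 libraries together and without the filter, so it differs from the scaling within each fit. Alternatives were RLE scaling, DESeq2 1.42.0, no filter, the replicate number as a block, scaling to 14 pan-epithelial markers, all 5 day-30 groups in 1 fit and each library left out. Intervals (± SE) came from the quasi-likelihood fit and include the spread between libraries of a group, while floors (3 counts) cover counting error only. Each member was named in each comparison that describes it; other lists were named by their highest and lowest gene with at most 5 others, or whole where they held 5 or fewer. Genes most like Trpm5 were the 10 of highest correlation among genes of mean CPM of at least 1. The members and lists were chosen with earlier results of these data known. 1 listed gene is not reported here. Scripts were tested on simulated data.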

Additional observations from a re-analysis of the deposited data

Results flagged for a closer look

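Among 72 combinations of member and group with 4 to 10 libraries, 9 held a library far from the others of its group, where chance gives about 1 in 20. Members moved together within libraries, so the combinations are not independent and no excess over chance is drawn from this count. In WT day 4 small intestine Trpm5 was at 41.2 CPM in replicate 2 (others 13.9 to 24.1). In BA tumours Trpm5 was at 8.60 CPM in replicate 1 (others 3.09 to 3.56) and Hpgds at 20.6 CPM in replicate 4 (others 17.4 to 17.8). BA day 30 replicate 4 had 11.5 CPM of Trpm5 (others 5.04 to 6.77). Alox5ap was at 9.08 CPM in BA antibiotics replicate 3 (others 2.1 to 3.37) and at 5.18 CPM in A sulindac replicate 3 (others 3.28 to 3.32). In Apcfl/+ tumours Pou2f3 was at 2.60 CPM in replicate 1 (others 0.523 to 1.04) and Hpgds at 19.5 CPM in replicate 2 (others 6.68 to 9.89). Avil was at 29.2 CPM in Apcfl/fl replicate 5 (others 4.50 to 9.01).

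Effects of 7 members differed between models in at least 1 interaction test of edgeR. The effect in Apcfl/+ tumours exceeded that in Apcfl/fl tissue at day 4 by 4.90 (log2) for Avil, 2.34 for Sh2d6, 2.18 for Dclk1, 1.57 for Trpm5 and 1.50 for Alox5ap. The effect in BA tumours minus that in Apcfl/+ tumours was -4.68 for Avil, 1.51 for Siglecf and 1.25 for Hpgds. The effect in BA tumours minus that in BA tissue at day 30 was 0.85 for Hpgds.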

How the results depend on the processing

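Among refitted values of single members, 1688 kept their direction and their side of the threshold, 48 passed in addition, 62 were lost and 2 turned sign, both under epithelial marker scaling: Avil in BA day 30 against WT (-0.40) and Alox5ap in Apcfl/+ tumours (-0.0906). For BA tumours against WT proximal colon, where 0 members were called, DESeq2 and the absence of a low-count filter each gave 2. For BA day 30 against WT (1 called), RLE scaling and the joint day-30 fit gave 0 and epithelial marker scaling 8. For BA antibiotics against WT (2 called), the joint fit gave 1, epithelial marker scaling 7 and the replicate block 0. For BA against A (1 called), RLE scaling, DESeq2, no filter, the joint fit and the replicate block gave 0 and epithelial marker scaling 5. For antibiotics against untreated BA (1 called), epithelial marker scaling and the replicate block gave 0. For BA minus Apcfl/+ tumour effects (3 called), no filter and the replicate block gave 1, and for BA tumour minus BA day 30 effects (1 called) they gave 0 and DESeq2 2. Apart from epithelial marker scaling, whose own construction shifts all genes, the cause was not tested. Shares of all genes called are given for the main fits alone, so counts in the refits have no share to be read against. The numbers of calls in both Apc comparisons and in A mice, treated or not, stayed within 1.5 times under every one of these settings.

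Leaving out 1 library at a time gave 7 to 8 calls for Apcfl/fl, 2 to 5 for Apcfl/+ tumours, 0 to 2 for BA tumours, 0 to 2 for BA day 30, 1 to 6 for BA with antibiotics, 0 to 1 for BA against A and 0 for A or sulindac. The range was 4 to 5 for tumour minus day 4 Apc effects, 1 to 7 for BA minus Apcfl/+ tumour effects and 0 to 4 for BA tumour minus BA day 30 effects. The same number in another group is a mouse of another genotype or treatment, and same-numbered libraries did not deviate together (correlations from -0.442 to 0.227), so the block shares only a number. The low-count filter removed Il25 in every comparison and Gfi1b in those without Apcfl/+ tumours. Without it both were called lower in Apcfl/fl (9 members in all) and Gfi1b in BA given antibiotics, on few counts.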
